A study of Mus musculus with 29 samples.

Results

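The IL-6 and oncostatin M axis was followed through colon RNA of 29 mice, as the 10 genes Il6, Il11, Osm, Lif, Il6ra, Il11ra1, Osmr, Lifr, Il6st and Socs3. They were taken by symbol from the 54532 genes of the count table, and all 10 were among the 18616 genes with enough counts to be tested. Across 6 mouse models of colitis the receptor chain for oncostatin M, Osmr, and the feedback inhibitor Socs3 were higher than in the matching controls in every model, while the receptor chain for leukaemia inhibitory factor, Lifr, was lower in every model. The ligand Lif rose in 5 models, Osm in 4, Il11 in 3 and Il6 in 1 (with TRUC and TCT added in fits of those groups alone), and the receptor subunit that all of these ligands share, Il6st, rose in 1 model and fell in another. In 1 kind of such fits, Osmr and Socs3 lost their calls in DNBS and Il11 lost its call in IL-10 blockade. Lifr lost its call in TRUC when genes with few counts were kept. Each of these calls was also lost without some single mice. So were the calls of Osm in TCT and IL-10 blockade and of Il11 in TRUC. Il11 passed in TCT in fits of those groups alone, and in DNBS in 1 kind of them.

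Cytokines of the IL-6 family signal through receptor complexes that contain gp130, the product of Il6st. IL-6 and IL-11 first bind their own receptor chain, encoded by Il6ra and Il11ra1, while oncostatin M joins gp130 with the product of Osmr and leukaemia inhibitory factor joins it with the product of Lifr. The complexes activate Janus kinases and mainly the transcription factor STAT3, whose target Socs3 encodes an inhibitor that binds gp130 and the kinases. In the gut, oncostatin M comes mostly from leukocytes and acts on stromal cells that carry its receptor, and IL-6, IL-11 and oncostatin M are known mediators of intestinal inflammation and repair.

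The models and controls are named here as the labels name them. Untreated Balb/C mice (n = 3, called wild-type controls) served DSS, DNBS and IL-10 blockade, which were also Balb/C. DSS mice (n = 3) drank 3% dextran sulfate sodium for 5 days and were culled on day 10, DNBS mice (n = 3) received 3 mg of dinitrobenzene sulfonic acid in ethanol rectally, and IL-10 blockade mice (n = 4) received a blocking antibody, 750 µg of anti-IL-10R according to the protocol, and were culled after 4 weeks. The study's text describes this last model as Il10-/- mice, and names C57Bl6 mice and an earlier cull for DSS. If the DSS mice were of that strain, DSS and strain cannot be told apart against the Balb/C controls. Il10 had 61 to 111 counts per library in IL-10 blockade and 1 to 4 in the wild-type controls. Untreated mice labelled C57BL/6 Rag1-/- (n = 3) served the TCT mice (n = 3), given 500000 naive CD4+ T cells and culled after 6 to 8 weeks, and the anti-CD40 mice (n = 3), given 50 µg of agonist antibody and culled after 7 days, all labelled with the same genotype. Untreated Balb/C Rag2-/- mice (n = 3) served TRUC mice (n = 4), which are Balb/C Tbx21-/- x Rag2-/- and develop colitis without treatment. In the count data the identifiers of TRUC mice 4 and 5 had another form than the rest, which the labels do not explain. Rag1-/- and Rag2-/- mice lack their own T and B cells, and TCT hosts carry only the transferred T cells. The controls were untreated, so the solvent of DNBS and the injections are not separated from the agents.

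Total counts ran from 10725564 to 14977094 per library, and levels are given as CPM, the count divided by the library total in megareads after trimmed-mean normalization, on which 3 counts correspond to between 0.179 and 0.314 CPM. The counts of the deleted genes went against some genotype labels. Rag2 had 6 to 20 counts in the libraries labelled Rag1-/- control, 48 to 99 in anti-CD40, 15 to 25 in the Rag2-/- controls, 57 to 94 in TRUC, and 0 or 1 in wild-type, DSS, DNBS, IL-10 blockade and TCT libraries, whereas Rag1 had 20 to 33 counts in TCT and at most 4 in every other group. In these counts anti-CD40 and its labelled control resembled the Rag2-/- mice, and TCT, whose protocol names Rag2-/- recipients, did not, so the transfer and a difference in genotype cannot be told apart. The mice labelled Rag2-/- are Balb/C, so a difference in strain between TCT and its labelled control, if present, cannot be told apart either. Tbx21 had 26 to 52 counts in TRUC and 1 to 7 in its controls, which checks the deletion only if the counted exons lie in it. Among the models, mouse 8 of DSS had the highest value of its group for all 10 family genes, and mouse 16 of DNBS for Il6, Il11, Lif, Osmr and Socs3. Counts come from whole colon segments, in which fewer cells of a type and less RNA per cell cannot be told apart. The labels do not say whether mice shared a litter or cage, and p-values measure the spread between these libraries.

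Short promoter stretches, from RefSeq on GRCm38.p6, are shown for motifs of factors known to act in this pathway. Windows from 250 bases before to 50 bases after the start were at hand for 9 of the 10 genes, and 12 such windows were searched on both strands. The STAT motif TTCNNNGAA was found in 1 of these 12, that of Socs3, a share near the 8.3% among 32851 mouse promoters. The AP-1 motif TGANTCA, bound by the Fos and Jun factors of injury responses, was found in 4 windows (7.81% of all promoters), and the NF-kB motif in 2 (8.46%). The AP-1 matches lay in windows of Il6, Il11, Lif and Osmr, that of Osmr 3 bases after the start. The NF-kB matches lay in those of Il6 and Lif. The stretches below give 1 match per gene and lie within 250 bases before the start. They run 5′ to 3′ on the strand of the gene, with the motif in capitals.
Socs3, STAT motif 154 bases before the start, chr11:117969502-117969530, minus strand: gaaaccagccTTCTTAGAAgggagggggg
Il6, NF-kB motif 44 bases before the start, chr5:30013060-30013089, plus strand: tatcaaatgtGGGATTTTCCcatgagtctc
Il11, AP-1 motif 98 bases before the second, internal start, chr7:4778223-4778249, minus strand: ggagggagggTGAGTCAggatgtgtca
Lif, AP-1 motif 228 bases before the start, chr11:4257330-4257356, plus strand: cagtcagctgTGACTCAggccatagtg
The window at the first start of Il11, at the end of the gene, held no AP-1 match. These matches describe the letters of the windows and were not tested as binding sites.

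The 6 models were each set against their control in edgeR, with an adjusted p under 0.05 as the threshold, and a gene is said to have risen or fallen only where it passed. In DSS, 8 of the 10 genes rose and 1 fell, against 17.7% of all tested genes that rose and 16.3% that fell. In TRUC, 5 rose and 2 fell (22.4% and 23.4% of all genes), in IL-10 blockade 5 and 2 (27.2% and 26.1%), in TCT 5 and 1 (16.1% and 14%), in anti-CD40 3 and 2 (10.9% and 10.7%) and in DNBS 2 and 1 (3.95% and 2.21%). The median log2 fold change of the 10 genes lay between 0.88 in DNBS and 2.67 in TRUC, while that of all tested genes lay between -0.03 and 0.02. Upper quartile scaling left 3854 genes higher and 6187 lower in IL-10 blockade, in place of 5058 and 4858, and 542 and 520 in DNBS, in place of 736 and 412; the direction of no family call turned. DSS, DNBS and IL-10 blockade share their control mice, as do TCT and anti-CD40, so their results are not independent of each other.

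**Figure D1:**
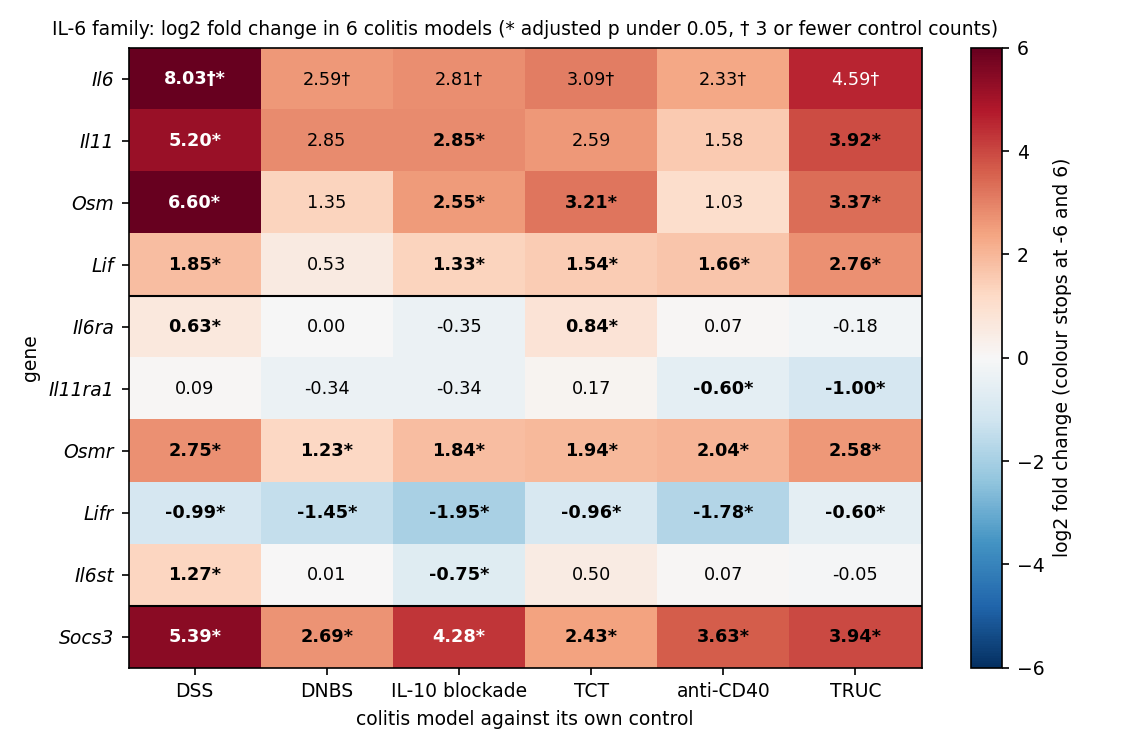
Log2 fold change of the 10 genes (rows: ligands, receptors and the inhibitor, separated by lines) in the 6 models (columns), each against its own control, from the edgeR fit. Osmr and Socs3 were called higher and Lifr lower in all 6 columns, and the largest value, 8.03 for Il6 in DSS, rests on a control group with 2 counts.

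Il6, on chromosome 5 (30013114-30019981, plus strand), encodes IL-6, the ligand that gives the family its name. It was nearly silent without colitis: each control library held 0 or 1 count, and the 3 control groups held 2, 2 and 1 counts. In DSS the 3 mice had 12, 12 and 565 counts, or 0.755, 0.820 and 45.2 CPM. The last value was mouse 8, and the other 2 mice also lay above every control. Because so few control counts were present, the change is best read as a ratio of summed counts, scaled by library size, with its 95% counting interval, which was 276 (76.1 to 2285) with all mice and 15.9 (3.94 to 138) without mouse 8. The call in DSS (adjusted p = 0.000327) was kept when any 1 mouse was left out, with a highest adjusted p of 0.0214.

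Il6 was low in the other models. TRUC mice had 7, 9, 22 and 3 counts, all above the Rag2-/- controls, with a ratio of 32.1 (5.45 to 1299) and an adjusted p of 0.0615. This passed without the filter on low counts (adjusted p = 0.0485) and in edgeR and DESeq2 on the groups compared alone (0.005 and 0.00105). It also passed with a replicate block (1.00e-05), but that fit kept only mice 2 and 4 of each group. It left out Rag2-/- control mouse 1, the only one of these controls with a count, and TRUC mouse 5, the lowest of its group. Counts per mouse were 6, 7 and 5 in TCT, 1, 4, 2 and 10 in IL-10 blockade, 2, 4 and 8 in DNBS, and 4, 7 and 0 in anti-CD40, where the range overlapped that of the controls. The ratios there were 9.95 (2.38 to 88.4) in TCT, 8.03 (1.91 to 71.6) in IL-10 blockade, 6.82 (1.57 to 61.9) in DNBS and 5.70 (1.24 to 52.9) in anti-CD40. None of these 4 passed the edgeR test over all groups, where adjusted p ran from 0.241 to 0.473, but TCT passed in edgeR and DESeq2 on its groups alone (adjusted p = 0.0094 and 0.0499). The intervals cover counting error only and leave out the spread between mice.

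Osm, on chromosome 11 (4236420-4241026, plus strand), encodes oncostatin M. It was also scarce in the controls, with 2 to 7 counts per library. DSS mice had 4.72, 8.00 and 98.4 CPM, the last again mouse 8, against 0.229, 0.466 and 0.410 CPM in the wild-type controls. The groups did not overlap, and the log2 fold change was 6.60 (SE 0.97, adjusted p = 2.79e-05). Without mouse 8 it was 4.06, still past the threshold, and the summed counts stood at a ratio of 16.9 (10.0 to 30.8).

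Osm also passed the test in 3 other models. TRUC mice had 1.99, 2.31, 4.03 and 0.896 CPM, while their controls had 0.177 to 0.230 (log2 3.37, SE 1.06, adjusted p = 0.0125). TCT mice had 2.18, 1.54 and 3.24 CPM against 0.147 to 0.344 in the labelled controls (log2 3.21, SE 1.08, adjusted p = 0.0267). IL-10 blockade mice had 1.77, 1.14, 1.63 and 4.39 CPM (log2 2.55, SE 0.96, adjusted p = 0.0292). All 3 groups lay above their controls without overlap. The call in TCT was lost without any 1 of its control mice or without TCT mouse 5, and that in IL-10 blockade without any 1 control or mouse 4. In DNBS (0.597, 1.63 and 0.682 CPM, all above the controls) and anti-CD40 (0.376, 1.03 and 0.144 CPM) Osm did not pass the test, with log2 fold changes of 1.35 (95% interval -0.75 to 3.44) and 1.03 (-1.51 to 3.58).

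Il11, on chromosome 7 (4772373-4782859, minus strand), encodes IL-11, a stroma-derived cytokine of wound repair and fibrosis. Controls held 1 to 7 counts per library. DSS mice had 1.76, 5.54 and 29.2 CPM, mouse 8 being the highest, and the log2 fold change was 5.20 (SE 1.12, adjusted p = 0.00102), or 3.47 without mouse 8, where the call was kept. TRUC mice had 2.06, 1.42, 6.05 and 0.733 CPM, all above the 0.0885 to 0.230 CPM of the Rag2-/- controls (log2 3.92, SE 1.26, adjusted p = 0.0137). That call was lost without Rag2-/- control mouse 1 or TRUC mouse 4 (highest adjusted p = 0.0612), and without TRUC mouse 4 the log2 fold change was 3.08. In IL-10 blockade the values were 0.927, 0.935, 0.172 and 7.63 CPM and overlapped the controls. The call there (log2 2.85, adjusted p = 0.0351) rested on mouse 4, without which the log2 fold change was 1.04, and it was also lost without any 1 control mouse and in edgeR on the groups compared alone (adjusted p = 0.0775).

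In DNBS all 3 mice (0.896, 2.56 and 3.75 CPM) lay above the wild-type controls for Il11, and in TCT all 3 (1.14, 1.11 and 1.30 CPM) above theirs, but with adjusted p of 0.127 and 0.155 neither passed. On the groups compared alone, DNBS passed in DESeq2 (adjusted p = 0.00174) and TCT in both DESeq2 (0.00543) and edgeR (0.00328). In anti-CD40 the values of 0.188, 1.11 and 0.431 CPM overlapped the controls. Il11 was the only one of the 10 genes whose changes did not differ between the 6 models in the F test of equal changes (adjusted p = 0.0696).

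Lif, on chromosome 11 (4257557-4272514, plus strand), encodes leukaemia inhibitory factor. Per kilobase of exon it had the highest mean level of the 4 ligands in every control group. TRUC mice had 31.3, 29, 25.8 and 23.2 CPM, and their Rag2-/- controls 4.43, 3.90 and 3.78, a 6.77-fold rise (log2 2.76, SE 0.37, adjusted p = 5.21e-06). The rise was 3.59-fold in DSS (17.2, 8.62 and 35.2 CPM; log2 1.85, or 1.197 without mouse 8), 3.16-fold in anti-CD40 (16.1, 18.3 and 12.5 CPM), 2.91-fold in TCT (11.96, 12.6 and 18.5 CPM) and 2.51-fold in IL-10 blockade (16.4, 15.2, 14.2 and 10.98 CPM). Control values lay between 3.78 and 5.99 CPM, below every mouse of these 5 models, and each of the 5 calls was kept when any 1 mouse was left out. In DNBS, mice 11 and 14 lay at 5.49 and 5.20 CPM and mouse 16 at 13.99, against 5.26 to 5.99 in the wild-type controls. The difference of 0.53 on the log2 scale (95% interval -0.19 to 1.26) did not pass.

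Osm and Lif are neighbours on chromosome 11, 16530 bases apart. Per kilobase of exon, Lif was above Osm in all 3 control groups, with mean levels of 0.928 to 1.296 against 0.0929 to 0.162 CPM per kilobase of exon. In DSS the order of the means was turned, with Osm at 16.3 ± 23.4 (SD, n = 3) and Lif at 4.67 ± 3.12, where the mean of Osm rests on mouse 8.

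**Figure D2:**
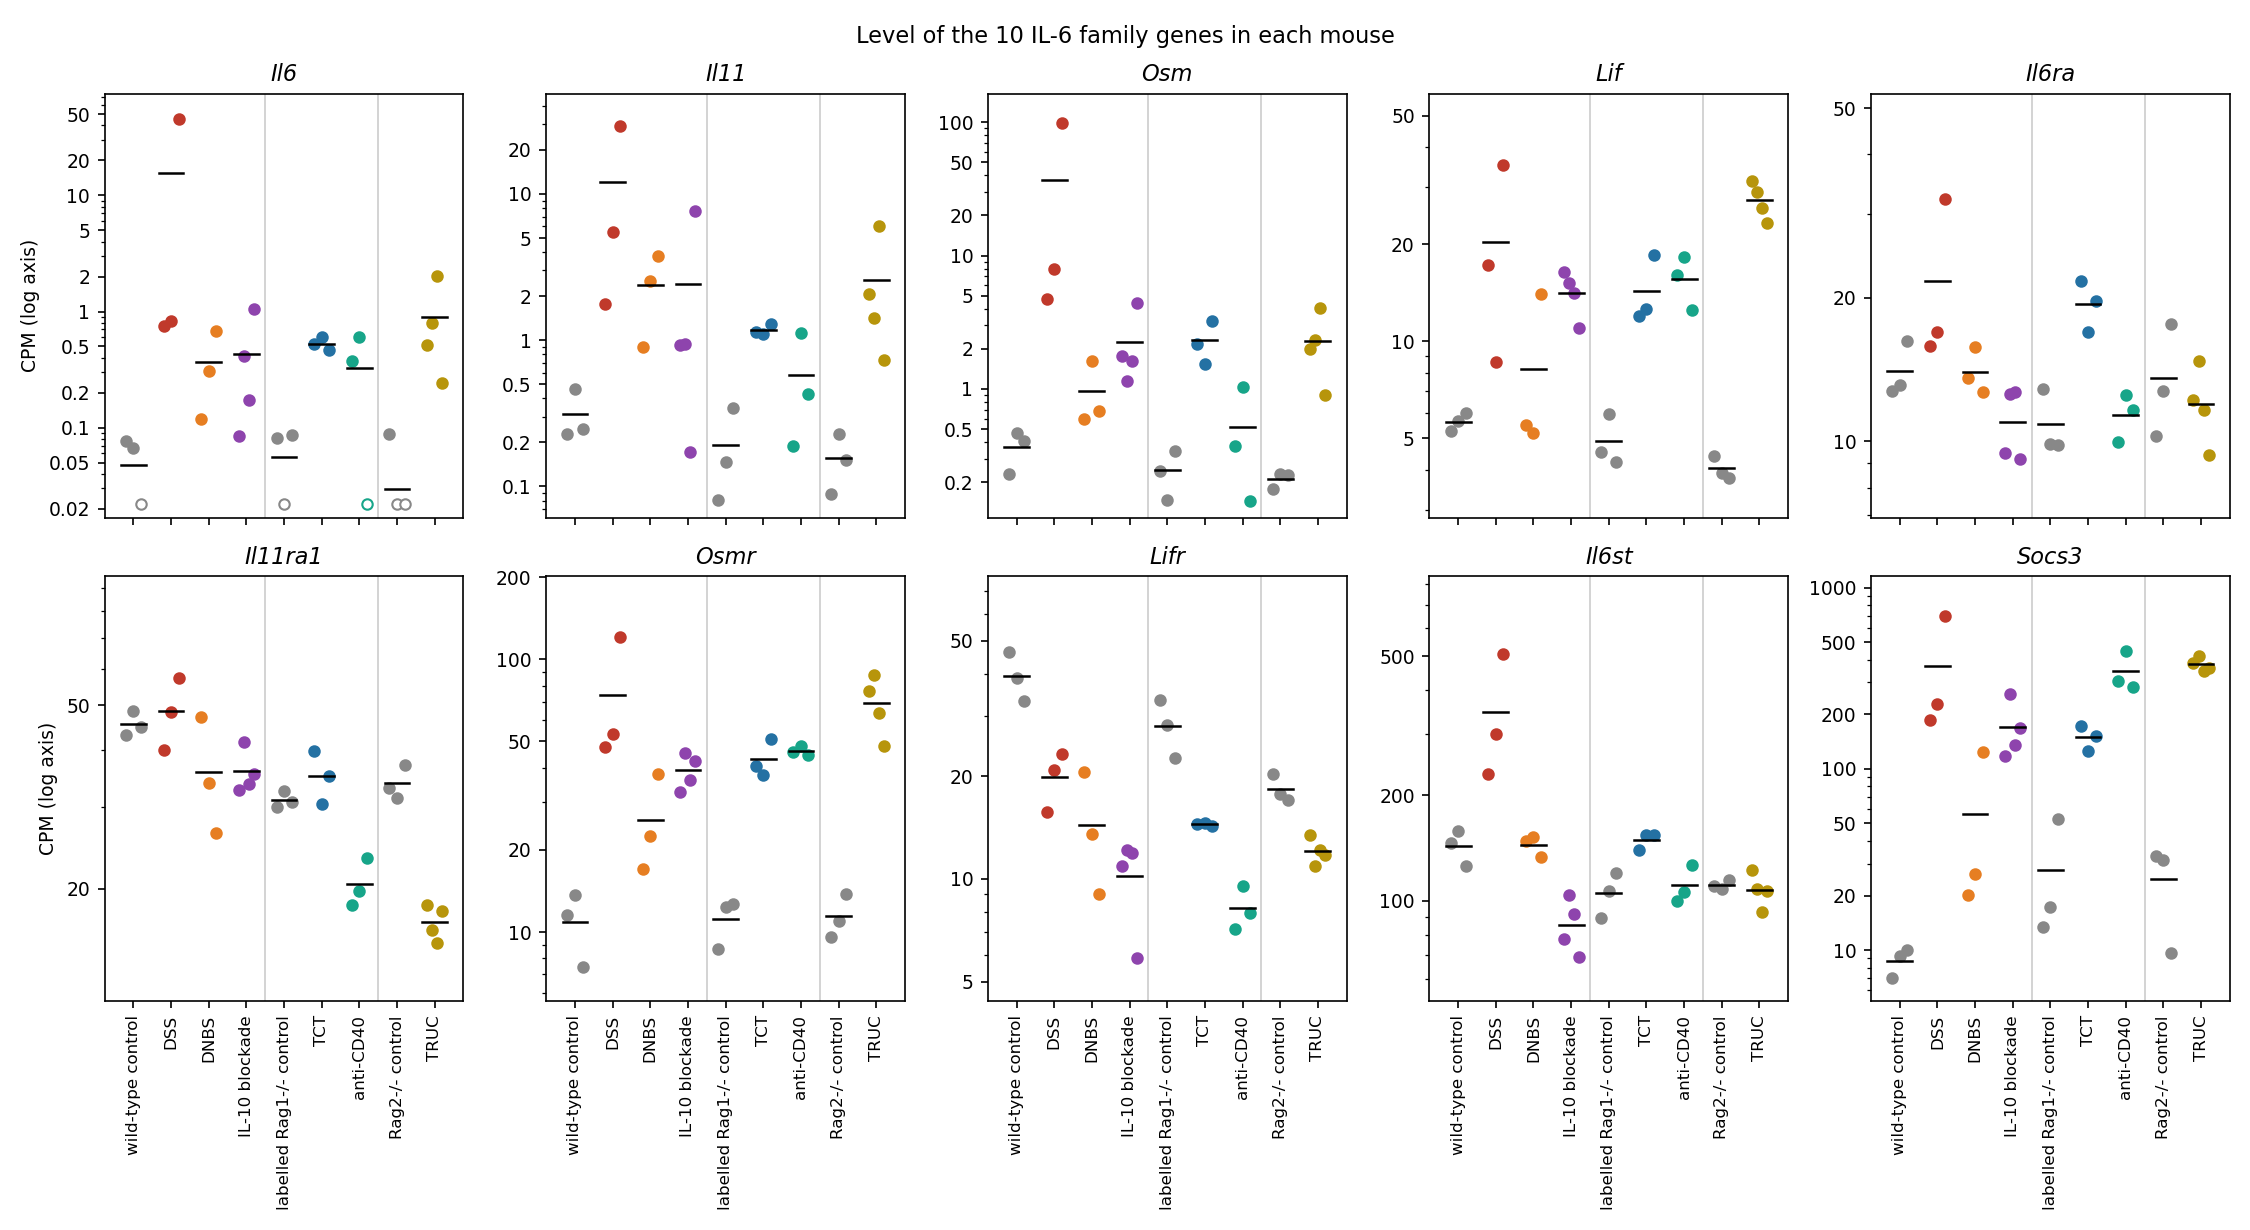
Level of each of the 10 genes (panels) in every mouse of the 9 groups, in CPM on log axes whose range differs between panels. Points are mice, black lines are group means, grey points are controls, vertical lines separate models with different controls, and open circles are libraries with 0 counts set at the lower edge. The Osmr and Socs3 points of each model lie above those of its controls and the Lifr points below.

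Osmr, on chromosome 15 (6813577-6874969, minus strand), encodes the chain that makes gp130 responsive to oncostatin M. The 9 control mice lay between 7.46 and 13.8 CPM, with group means of 10.9 ± 3.18, 11.2 ± 2.20 and 11.5 ± 2.16 CPM (SD, n = 3 each) for wild-type, labelled Rag1-/- and Rag2-/- controls. DSS mice had 47.6, 53.3 and 121 CPM and TRUC mice 76.3, 87.8, 63.4 and 48.1, which are rises of 6.75-fold (log2 2.75, SE 0.33, adjusted p = 3.23e-06) and 6.00-fold (log2 2.58, SE 0.31, adjusted p = 1.77e-06). Anti-CD40 mice had 45.6, 48.2 and 44.6 CPM (4.11-fold, adjusted p = 0.000151), TCT mice 40.6, 37.6 and 50.9 (3.83-fold, adjusted p = 6.03e-05) and IL-10 blockade mice 32.6, 45.4, 36.0 and 42.6 (3.57-fold, adjusted p = 4.06e-05). These 5 calls were kept when any 1 mouse was left out.

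DNBS had the smallest rise of Osmr, with 16.96, 22.5 and 37.95 CPM against 7.46 to 13.7 in the wild-type controls (2.35-fold, log2 1.23, SE 0.32, adjusted p = 0.0242). Its mice did not overlap the controls, but the call was lost without any 1 control mouse or without DNBS mouse 14 or 16 (highest adjusted p = 0.187), and in edgeR on the groups compared alone (0.0839). In order of mean level the groups ran from the controls through DNBS (25.8 CPM), IL-10 blockade (39.2), TCT (43.0), anti-CD40 (46.1) and TRUC (68.9) to DSS (74.1). DSS stood last through mouse 8, and without it its mean was 50.5 CPM, below TRUC. Mice of each model overlapped those of the next in this order.

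Lifr, also on chromosome 15 (7090614-7197489, plus strand) and 215644 bases from Osmr, encodes the chain for leukaemia inhibitory factor. It moved the other way. Wild-type controls had 46.3, 38.9 and 33.1 CPM, while IL-10 blockade mice had 10.9, 12.2, 11.9 and 5.86, a level 3.86-fold lower (log2 -1.95, SE 0.23, adjusted p = 7.35e-07). Anti-CD40 mice had 7.14, 9.52 and 7.97 CPM against 33.6, 28.3 and 22.5 in the labelled controls, 3.42-fold lower (log2 -1.78, adjusted p = 4.84e-05). DNBS mice had 20.5, 13.6 and 9.04 CPM, 2.73-fold lower (log2 -1.45, adjusted p = 0.00146). Among the 10 genes Lifr was the only one that fell in DNBS.

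The fall of Lifr was smaller in DSS (15.7, 20.9 and 23.2 CPM, 1.98-fold lower, adjusted p = 0.0027), TCT (14.5, 14.6 and 14.3 CPM, 1.95-fold lower, adjusted p = 0.00389) and TRUC (13.4, 10.9, 12.2 and 11.7 CPM, 1.52-fold lower, log2 -0.60, SE 0.23, adjusted p = 0.0325). Every mouse of each model lay below every mouse of its control. The call in TRUC was lost without any 1 of TRUC mice 3, 4 and 5 or of Rag2-/- control mice 1 and 2, without the filter on low counts (adjusted p = 0.0529) and with a replicate block (0.113), while the other 5 calls were kept when any 1 mouse was left out. The starting levels of the controls differed: Rag2-/- controls (20.3, 17.8 and 16.99 CPM) were below wild-type controls of the same labelled strain by 1.11 on the log2 scale (SE 0.24, adjusted p = 0.0031), where 8.11% of all genes differed in either direction and none of the other 9 family genes was called.

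The order of Osmr and Lifr was reversed between controls and mice with colitis, with 1 exception. Taken per kilobase of exon within a library, which removes the library scaling, the ratio of Osmr to Lifr was 0.222, 0.314 and 0.200 in the wild-type controls, 0.230, 0.387 and 0.499 in the labelled Rag1-/- controls and 0.420, 0.552 and 0.724 in the Rag2-/- controls. It was 2.69, 2.27 and 4.65 in DSS, 2.49, 2.29 and 3.17 in TCT, 5.68, 4.50 and 4.98 in anti-CD40, 2.67, 3.32, 2.69 and 6.47 in IL-10 blockade and 5.06, 7.14, 4.63 and 3.65 in TRUC. DNBS mice had 0.734, 1.47 and 3.73, mouse 11 being the only mouse with colitis below 1, and mouse 16 the highest of the 3. This ratio was formed after the directions of both genes were known and carries no test.

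**Figure D3:**
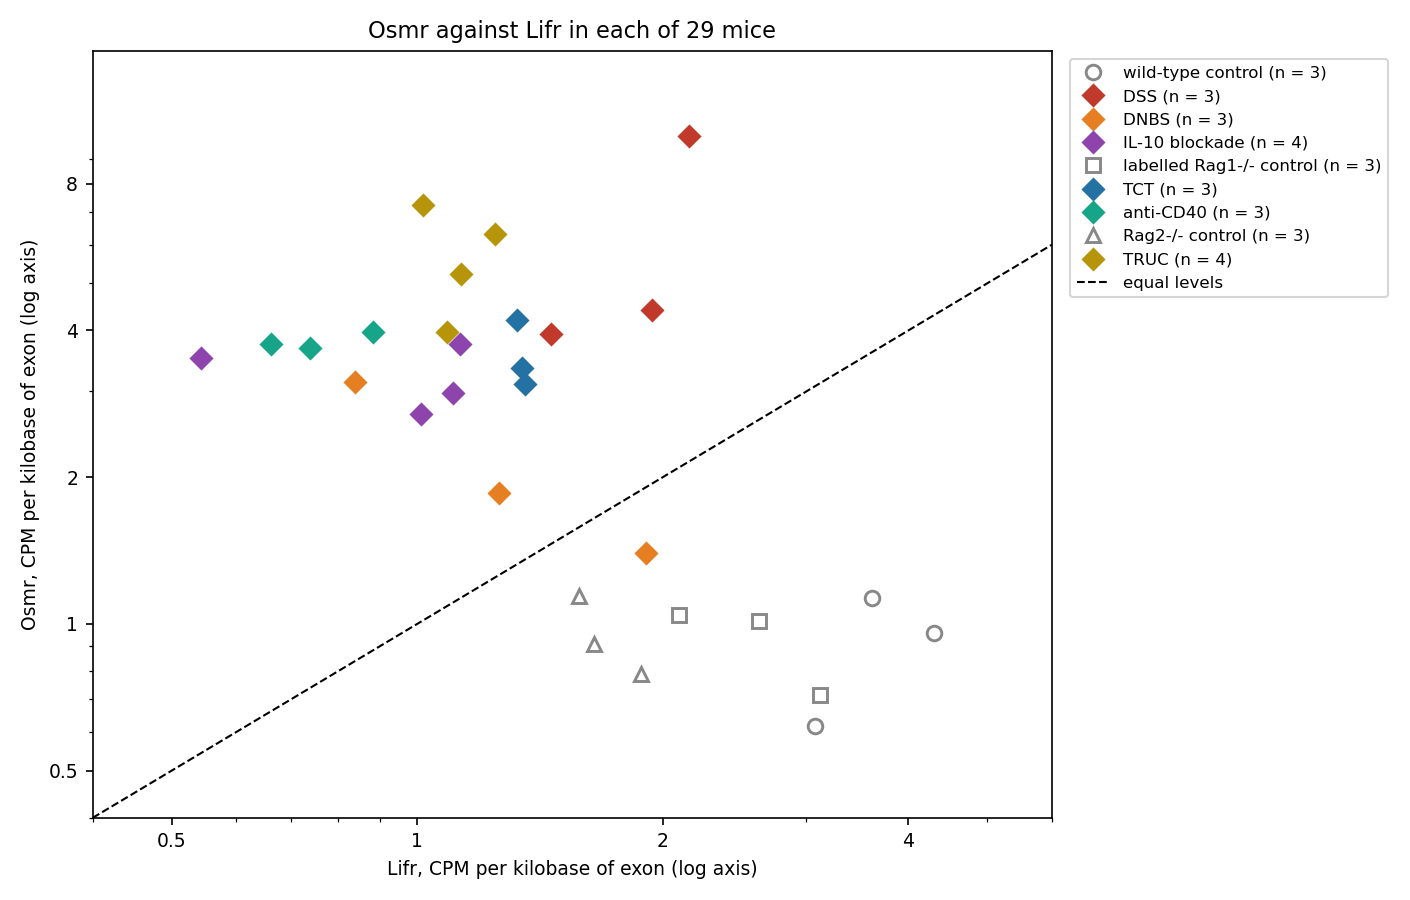
Osmr against Lifr in each of the 29 mice, in CPM per kilobase of exon on log axes, with open grey symbols for the 3 control groups, filled diamonds for the 6 models and a dashed line where both are equal. All 9 control mice lie below the line and all mice with colitis above it except DNBS mouse 11, whose ratio was 0.734.

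The remaining receptor chains changed less. Il6st, on chromosome 13 (112464070-112510086, plus strand), was the most abundant receptor gene of the family per length, at 9.50 to 12.9 CPM per kilobase of exon in the control groups. DSS mice had 230, 300 and 507 CPM against 147, 159 and 126 in the wild-type controls, a 2.41-fold rise (log2 1.27, SE 0.20, adjusted p = 4.54e-05), and without mouse 8 the log2 fold change was 0.89. IL-10 blockade mice had 77.7, 104, 91.8 and 69.2 CPM, 1.68-fold lower than the same controls (log2 -0.75, SE 0.18, adjusted p = 0.00141). Neither group overlapped its controls. In TCT the 3 mice lay above their controls (log2 0.50, adjusted p = 0.0522; 0.0225 in edgeR and 0.00871 in DESeq2 on the groups compared alone), and in DNBS, anti-CD40 and TRUC the log2 fold changes were 0.01 (95% interval -0.37 to 0.39), 0.07 (-0.31 to 0.45) and -0.05 (-0.40 to 0.31).

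Il6ra, on chromosome 3 (89864059-89913196, minus strand), encodes the IL-6 binding chain. TCT mice had 21.7, 16.9 and 19.7 CPM against 12.9, 9.87 and 9.81, a 1.79-fold rise (log2 0.84, SE 0.24, adjusted p = 0.00895). Against the wild-type controls in place of the labelled ones this log2 fold change was 0.47 and did not pass (adjusted p = 0.129). Those controls differ from TCT in labelled strain and genotype, and have their own T and B cells. In DSS the values of 15.9, 16.96 and 32.2 CPM overlapped the controls, and the call (log2 0.63, adjusted p = 0.0407) rested on mouse 8, without which the log2 fold change was 0.23 and the adjusted p 0.472. It was also lost without wild-type control mouse 1 or 2, under upper quartile scaling (adjusted p = 0.0527) and in edgeR and DESeq2 on the groups compared alone (0.158 and 0.152). In the other 4 models Il6ra did not pass, with log2 fold changes from -0.35 to 0.07. An unrelated gene on the opposite strand, Gm42809, overlaps 2.80% of its exon bases, and the sources used here do not say whether reads were counted by strand.

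Il11ra1, on chromosome 4 (41699989-41769474, plus strand), encodes the IL-11 binding chain. TRUC mice had 18.4, 16.3, 15.2 and 17.8 CPM against 33.02, 31.5 and 37.01, 2.00-fold lower (log2 -0.998, SE 0.15, adjusted p = 2.28e-05). Anti-CD40 mice had 18.4, 19.7 and 23.3 CPM against 30.1, 32.6 and 30.8, 1.52-fold lower (log2 -0.60, SE 0.16, adjusted p = 0.0108). The second call was lost without anti-CD40 mouse 6 or 7 (adjusted p up to 0.0545). In the other models the log2 fold changes lay between -0.34 and 0.17 and did not pass, although IL-10 blockade (log2 -0.34, adjusted p = 0.0577) passed in 4 other fits, with adjusted p down to 0.0093. The gene shares 46.3% of its 50-base exon windows with the near-identical copies Il11ra2 and Gm13305, which had 0 to 4 counts per library, so the counts of Il11ra1 depend on how reads with several matches were treated.

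Socs3, on chromosome 11 (117966079-117970047, minus strand), encodes the feedback inhibitor. In every model its log2 fold change was above those of Lif and of all receptor genes. Wild-type controls had 7.01, 9.26 and 10.0 CPM. DSS mice had 186, 227 and 694 CPM, a 42.1-fold rise (log2 5.39, SE 0.69, adjusted p = 7.60e-06) whose log2 value was 4.56 without mouse 8, and IL-10 blockade mice 118, 260, 136 and 168, a 19.4-fold rise (log2 4.28, SE 0.65, adjusted p = 1.38e-05). TRUC mice had 384, 422, 345 and 359 CPM against 32.8, 31.3 and 9.59 (15.4-fold, adjusted p = 3.62e-05). The groups did not overlap, and the mean of the Rag2-/- controls was 24.6 ± 13.0 CPM (SD, n = 3).

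Anti-CD40 mice had 305, 446 and 285 CPM and TCT mice 172, 125 and 151, against 13.5, 17.4 and 52.7 in the labelled controls. The rises were 12.4-fold (log2 3.63, adjusted p = 0.000363) and 5.37-fold (log2 2.43, adjusted p = 0.00348). Without the control at 52.7 CPM, mouse 4, the log2 fold changes were 4.48 and 3.28. Against the wild-type controls, which differ in labelled strain and genotype, that of TCT was 4.09. DNBS mice had 20.1, 26.3 and 123 CPM, the last being mouse 16, and rose 6.43-fold (log2 2.69, SE 0.63, adjusted p = 0.0147). Without mouse 16 the log2 fold change in DNBS was 1.41 and the adjusted p 0.200, and the call was also lost without wild-type control mouse 1 or 2 and in edgeR on the groups compared alone (adjusted p = 0.0714). The other 5 calls were kept when any 1 mouse was left out. In order of mean level the groups ran from wild-type controls (8.76 CPM) through Rag2-/- and labelled Rag1-/- controls (24.6 and 27.8), DNBS (56.6), TCT (149), IL-10 blockade (171), anti-CD40 (345) and DSS (369) to TRUC (377), and neighbours in this order overlapped except anti-CD40, which lay above IL-10 blockade, and TCT, which lay above DNBS. Without mouse 8 the mean of DSS was 206 CPM, between IL-10 blockade and anti-CD40.

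Osmr and Socs3 were 2 of the 200 genes (1.07%) called higher in all 6 models, and Lifr 1 of the 114 (0.612%) called lower in all 6. Without DNBS mouse 16 both were called in 5 models, and without any 1 of the 5 libraries named above for TRUC so was Lifr. For 9 of the 10 genes the size of the change differed between the 6 models in the F test, which 60.5% of all genes passed.

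Models with the same control and labelled genotype were compared directly. Between DSS and DNBS, 22.6% of all genes differed in either direction, and 6 of the 10 family genes were higher in DSS: Il6, Osm, Socs3, Osmr, Lif and Il6st. The difference for Osm was 5.25 on the log2 scale (SE 0.87, adjusted p = 0.000374) and for Osmr 1.52 (SE 0.31, adjusted p = 0.0015). Lifr did not pass (0.46, SE 0.24, adjusted p = 0.170). The values of DSS here include mouse 8, and the pair was not fitted without it. Between IL-10 blockade and DSS, 49.8% of all genes differed, and 8 family genes were lower in IL-10 blockade, among them Il6st by 2.01 (SE 0.18, adjusted p = 5.35e-08), Osm by 4.05 and Lifr by 0.96. Lif and Socs3 did not pass there (adjusted p = 0.193 and 0.0809). Among the genes that were lower, Il6, Il11 and Il11ra1 overlapped between the groups. This pair also includes DSS mouse 8 and was not fitted without it. Without mouse 8 the mean of Osm in DSS was 6.36 CPM in place of 37.1, against 2.23 in IL-10 blockade.

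Between IL-10 blockade and DNBS, where 33.9% of all genes differed, Socs3 was higher (log2 1.60, SE 0.56, adjusted p = 0.03) and Il6st lower (log2 -0.76, SE 0.18, adjusted p = 0.0027) in IL-10 blockade. Between TCT and anti-CD40, where 18.4% of all genes differed, 3 receptor genes were higher in TCT: Il6ra (log2 0.77, adjusted p = 0.0236), Il11ra1 (log2 0.78, adjusted p = 0.00136) and Lifr (log2 0.82, adjusted p = 0.0235). Osmr and Lif differed by -0.10 (SE 0.30) and -0.12 (SE 0.35) between them. The difference in Rag1 and Rag2 counts described above lies between these groups as well.

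The wider pathway was read from 4 lists. Over all genes, 27.2% rose and 26.1% fell in IL-10 blockade, 22.4% and 23.4% in TRUC, and 17.7% and 16.3% in DSS. The shares were 16.1% and 14% in TCT, 10.9% and 10.7% in anti-CD40, and 3.95% and 2.21% in DNBS. They also stand beside the cell type lists below. Several counts in the shorter lists were near or below these shares. Among 17 targets of STAT3, 16 rose in IL-10 blockade, 14 in TRUC, 14 in DSS, 9 in TCT, 9 in anti-CD40 and 3 in DNBS, and none fell, with median log2 fold changes of 1.02 to 1.79. Socs3 is held apart from this list. Without DSS mouse 8 the count in DSS was 11, without DNBS mouse 16 that in DNBS was 2, and without mouse 4 of IL-10 blockade that there was 14. Lrg1, which encodes a secreted glycoprotein of the acute phase, rose in all 6 models: from 2.51 to 4.93 CPM in the controls to 879 to 1043 in TRUC, 211 to 843 in IL-10 blockade, 325 to 679 in anti-CD40, 85.9 to 230 in TCT, 69.9 to 119 in DSS and 9.49 to 70.3 in DNBS. Icam1, an adhesion molecule for leukocytes, rose in 5 models, with log2 fold changes from 1.91 in IL-10 blockade to 2.90 in TCT, and in DNBS its log2 fold change was 1.69 (adjusted p = 0.0563).

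Reg3b and Reg3g encode antimicrobial lectins of the epithelium. Reg3b rose in IL-10 blockade (303 to 7511 CPM), TRUC (669 to 1068) and TCT (74.7 to 182), while in DSS it stood at 0.0684 to 1.68 CPM, with 1 count in all wild-type controls together, and did not pass (adjusted p = 0.289). Reg3g rose in the same 3 models. In DSS Reg3g stood at 0 to 3.84 CPM (adjusted p = 0.223).

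Among 9 inhibitors of cytokine signalling other than Socs3, 4 rose in each of TRUC, DSS, IL-10 blockade and TCT, 2 in anti-CD40 and 1 in DNBS, and between 1 and 3 fell. The 2 that fell in IL-10 blockade were near the 26.1% of all genes that fell there. Without DSS mouse 8, 2 rose and 2 fell in DSS, and without DNBS mouse 16 none was called in DNBS. Socs1, an inhibitor of Janus kinases, rose in all 6, from 1.93 to 4.35 CPM in the controls to means of 25.0 in DNBS and 92.2 in TRUC (log2 3.44 to 5.00). Socs2, which restrains growth hormone signals, fell in all 6, by 0.84 in DNBS to 1.81 in anti-CD40 on the log2 scale. Ptprc, which encodes the leukocyte phosphatase CD45, rose in 5 models, and the phosphatase gene Ptpn1 in 4.

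Of 7 genes for Janus kinases, STAT factors and Ptpn11, 4 rose in DSS, 3 in IL-10 blockade, 2 in TRUC, 1 in anti-CD40 and 0 in TCT and DNBS, and 1, Ptpn11, fell in IL-10 blockade. The counts in TRUC and anti-CD40 were near the shares of all genes that rose there, 22.4% and 10.9%. Without DSS mouse 8 the count in DSS was 1, and without mouse 4 of IL-10 blockade none fell there. Stat3 rose in DSS (log2 1.04, adjusted p = 0.000254) and IL-10 blockade (log2 0.49, adjusted p = 0.0233). Jak2 rose in TRUC, IL-10 blockade and DSS, and Tyk2 in TRUC, IL-10 blockade and anti-CD40, each by less than 1 on the log2 scale. Jak1 rose in DSS alone among the 6 comparisons (log2 0.38, adjusted p = 0.00407).

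Of 8 other ligands and receptors of the gp130 group that could be tested, 5 rose in DSS, 3 in TCT, 1 in TRUC and 1 in IL-10 blockade, and none in DNBS or anti-CD40, while 1 or 2 fell in each model but DNBS. Without DSS mouse 8 the count in DSS was 1. Ctf1, which encodes the ligand cardiotrophin, which also signals through Lifr, fell in 4 models (log2 -1.17 in TRUC, -1.49 in DSS, -1.54 in TCT and -1.89 in IL-10 blockade). Il27 and Il12a, which encode cytokine subunits of myeloid cells, passed the test in DSS and in no other model of this fit (Il27 in TRUC had an adjusted p of 0.0562), and Ebi3, which encodes the partner subunit of both, in DSS and TCT. Il27 stood at 0.137 to 14.2 CPM in DSS and overlapped the wild-type controls (0.0666 to 0.229 CPM). All of these genes are among the 5 that rose in DSS, where the count was 1 without mouse 8.

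**Figure D4:**
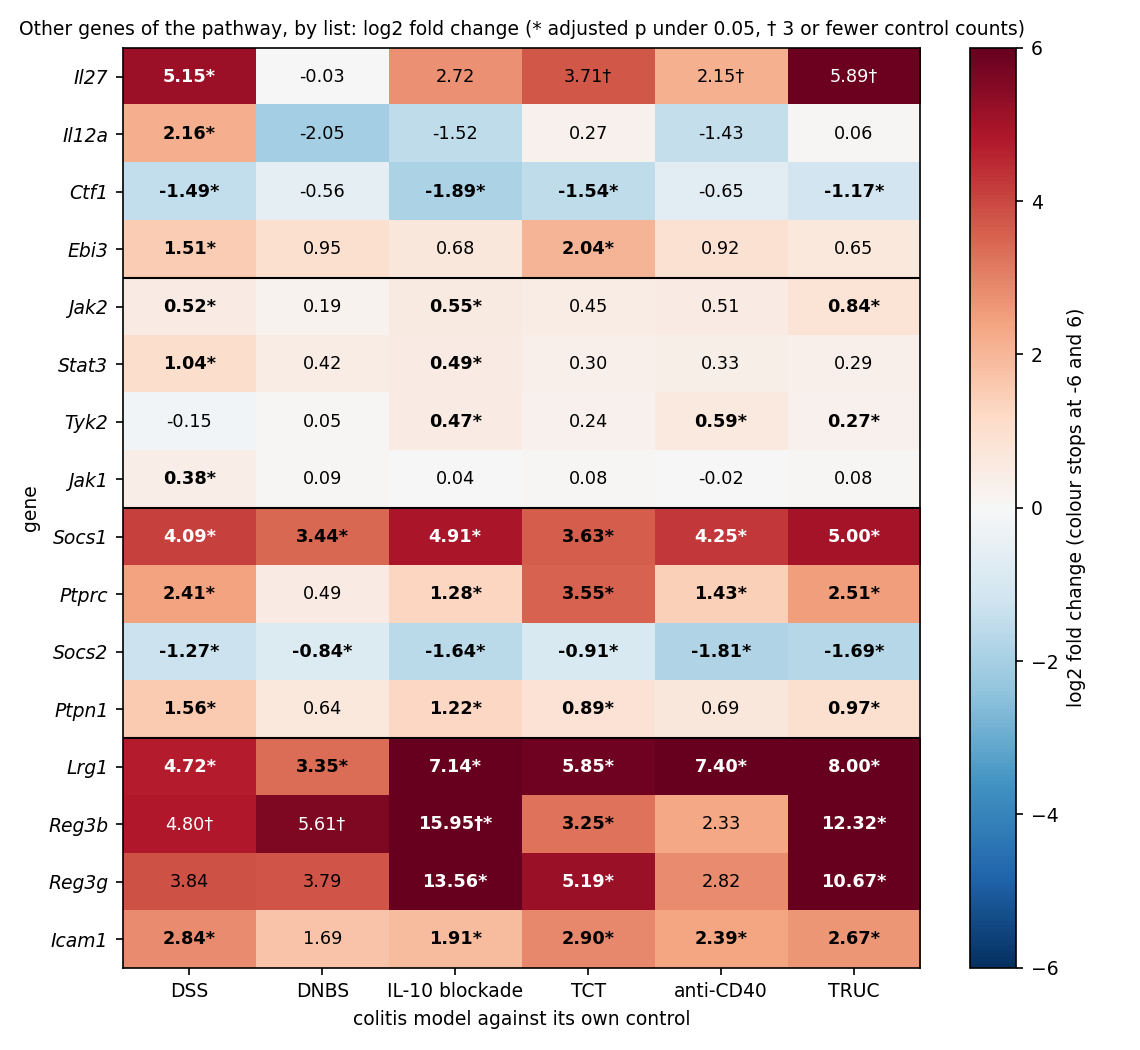
Log2 fold change of the 16 genes named from the 4 other lists (rows, from the top: gp130 ligands, Janus kinases and STAT factors, inhibitors, STAT3 targets, separated by lines) in the 6 models (columns). Socs1 and Lrg1 were called higher and Socs2 lower in all 6 columns. Daggers mark values against a control group with 3 or fewer counts, whose fitted size depends on the smoothing of the fit.

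Marker genes of cell types moved with the family in several models. The summed level of 8 neutrophil markers was 1.05 to 2.34 CPM in the 9 control mice, and Cxcr2 was at 0 in all of them. It was 757 to 1258 CPM in TRUC, 192, 349 and 1883 in DSS, 137 to 343 in IL-10 blockade, 113 to 265 in TCT, 33.3 to 191 in anti-CD40 and 22.6 to 109 in DNBS, and between 4 and 8 of the 8 markers rose in each model. DSS mouse 8, with the highest Il6, Osm and Il11, also had the highest neutrophil sum, whereas DNBS mouse 16, with the highest Socs3 of its group, had 60.0 CPM and mouse 14 had 109. Of 8 monocyte and macrophage markers, 8 rose in TRUC, DSS and TCT, 5 in IL-10 blockade, 3 in anti-CD40 and 2 in DNBS, with sums of 238 to 396 CPM in controls and 441 to 2133 in the models. Their part in the changes of Osm, Osmr and Socs3 was not tested.

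Markers of non-immune cells moved in some models as well. Smooth muscle markers fell for 5 of 6 in IL-10 blockade and 2 of 6 in TRUC and for none elsewhere, and their sum was 2236 to 4369 CPM in IL-10 blockade against 5677 to 7088 in the wild-type controls. Markers of enteric neurons and glia fell for 6 of 6 in TRUC, 5 of 6 in IL-10 blockade, 3 of 6 in anti-CD40 and 1 of 6 in TCT, while 3 of 6 rose in DSS and none was called in DNBS. Endothelial markers rose for 6 of 6 in DSS, 2 in DNBS and 1 each in TCT and IL-10 blockade, and 1 fell in IL-10 blockade. Fibroblast markers rose for 4 of 8 in DSS and DNBS, 2 in TCT and 1 in TRUC, and fell for 3 in IL-10 blockade, 2 in anti-CD40 and 1 in TRUC. Il6st passed the test in DSS and IL-10 blockade and in neither DNBS nor anti-CD40. Of 8 markers of colon epithelium, 5 rose and 1 fell in IL-10 blockade, 2 rose and 2 fell in TRUC, 2 and 1 in anti-CD40, 1 and 2 in TCT, and 1 rose in DSS. Their sum was at least 4640 CPM in every library, as in colon tissue. T cell markers rose for 6 of 6 in TCT and IL-10 blockade, 4 in DSS and 3 in TRUC. Of 5 B cell markers, 4 rose in DSS and 1 in TCT, and no other of them was called. Of 4 mast cell markers that could be tested, 1 or 2 rose in each model and 1 fell in TRUC, IL-10 blockade and TCT. The mean sum of all 5 listed mast cell markers was lower in every model than in its controls, for example 25.5 against 52.2 CPM in TRUC and 23.0 against 45.1 in IL-10 blockade. Of 6 pancreas markers only Cela1 could be tested, and it fell in all models but DNBS (log2 -0.99, adjusted p = 0.119). Prss1, Cpa1, Pnlip, Amy2a5 and Ins2 had 0 counts in the wild-type and Rag2-/- controls. The sum in the wild-type controls, 444 to 511 CPM, was thus Cela1 alone and does not by itself mark pancreas. The part of these cell types in the changes of Lifr, Il6st and Il11ra1 was not tested.

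The genes whose levels followed each member most closely over the 29 libraries were found by Pearson's r of log2 CPM, as a description, since the libraries fall into 9 groups and share the contrast of colitis and control. Osmr was closest to Tnfrsf1b (r = 0.967), Pfkfb3 and S100a8, Socs3 to Sbno2 (r = 0.971), Tnfrsf1b and Xdh, and Lif to Tmem173 (r = 0.959), Ccl7 and Tnfrsf1b. Osm was closest to Ccl3 (r = 0.952), Trem1 and Plek, Il6 to Crem (r = 0.916), Ier3 and Rnd1, and Il11 to Mmp13 (r = 0.898), Ier3 and Trem1. Lifr was closest to Camk1 (r = 0.874), Sdc2 and Plpbp, Il6st to Adgrf5 (r = 0.933), Epn2 and Zeb2, Il11ra1 to Clmp (r = 0.908) and Tmem252, and Il6ra to Dmxl2 (r = 0.843), Stx2 and Notch2.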

How the data were processed

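RNA-seq of colon segments from 29 mice was analysed. The authors deposited raw counts, whole numbers of reads per gene and mouse without normalization. The submitters' processing notes name Trimmomatic, HISAT2, HTSeq and GRCm38. Their settings, strand and the handling of reads with several matches are not given in the sources used here. The 92 spike-in rows held 0 counts and were left out.

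Genes whose count averaged 3 or more over all mice (18616) were scaled by trimmed-mean normalization and fitted in edgeR 4.0.16 (R 4.3.3) with all 9 groups and no covariate. Contrasts were tested by the quasi-likelihood test with Benjamini-Hochberg adjustment (threshold 0.05), and equal changes in 6 models by its F test. Standard errors were taken as log2 fold change over the root of F. Alternatives were other scalings and filters, 2-group fits in edgeR and DESeq2 1.42.0, a threshold of 0.01, other controls, a replicate block and leaving out each mouse; counts of the wider lists without single mice and means of DSS without mouse 8 were added after seeing the data. Within the groups no 2 libraries looked like repeats (33 pairs, lowest chi-square per degree of freedom 3.46), and pairs between groups were not compared. The fit was tested on simulated data.

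The members and lists were chosen with earlier results of these data known. All members are named, as are at most 4 genes per wider list, those with the largest median absolute change among genes past the threshold in at least 1 model, and the 3 genes most like each member. Ptpn11 was named after its values were seen. Results of 2 genes, 1 of a wider list and 1 of those most like a member, are not reported here, and the counts of that list leave its gene out.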

Additional observations from a re-analysis of the deposited data

Results flagged for a closer look

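In groups of 4 mice, the gap of the extreme mouse to its neighbour was compared with the range of the group. Of 20 such groups and genes, 1 was past the 95% limit, as many as chance gives in 20: Il11 in IL-10 blockade, where mouse 4 stood at 7.63 CPM and the other mice at 0.172 to 0.935.

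The change against the controls differed between the 6 models, by the edgeR F test, for 9 of the 10 genes, as it did for 60.5% of all genes. The adjusted p was 3.06e-07 for Il6st, which rose in DSS and fell in IL-10 blockade, and 3.44e-05 for Osm. It was 0.000123 for Il11ra1, 0.000658 for Il6, 0.000929 for Lifr and 0.00108 for Il6ra. It was 0.00334 for Osmr, 0.00367 for Socs3 and 0.00838 for Lif. The sizes of Osmr and Socs3 differed between models although both rose in all 6.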

How the results depend on the processing

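At a threshold of 0.01, 3 members were higher and 1 lower in TRUC, 0 higher in DNBS, 3 higher in IL-10 blockade and 1 lower in anti-CD40. Upper quartile scaling, which moved the median of all genes to -0.14 in TRUC and -0.18 in IL-10 blockade on the log2 scale, gave 4 members lower in IL-10 blockade, Il6ra (log2 -0.52) and Il11ra1 (-0.51) being added. Without a filter on low counts 1 was lower in TRUC. DESeq2 on the groups compared gave 5 higher in DSS, where it set no adjusted p for Il6 and Osm, and 8 in TCT, and edgeR on these groups alone 0 higher in DNBS and 8 in TCT. When 1 mouse was left out, the members higher in DNBS ran from 0 to 2 and in IL-10 blockade from 3 to 5, and those lower ran from 1 to 2 in DNBS, TRUC and anti-CD40; the cause was not tested. Against other untreated controls, which differ in labelled strain and genotype, TCT had 4 members higher and 1 lower and anti-CD40 3 and 2. With the replicate number as a block, on the mice whose number occurs in both groups, 6 members were higher and 1 lower in TRUC, as in these 4 mice without the block, and 5 and 2 in IL-10 blockade. Same-numbered mice did not deviate together (r between -0.05 and 0.06), so the numbers were not taken as pairs. Over single members and models no direction of a call was reversed: 364 of the values under other settings kept their side of the threshold, 16 passed it newly and 9 lost it, and without single mice 344 kept it, 4 passed newly and 32 lost it. Over all genes, counts of calls moved by over 1.5 times in DNBS (355 higher and 157 lower in edgeR on these groups alone, 1129 and 771 in DESeq2, 156 to 1365 and 42 to 977 without 1 mouse), at a threshold of 0.01 (DNBS 175 and 46, DSS 2035 and 1834, TCT 1963 and 1550, anti-CD40 975 and 877, TRUC 2890 lower) and without 1 mouse in DSS (down to 1940 and 1895), anti-CD40 (928 and 821) and TCT (1726 lower). Control libraries with 0 or 1 count of Il6 limit its fold changes.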
